A study of Bos taurus with 16 samples.

Results

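The actin and myosin cytoskeleton genes are the genes of a bovine oligonucleotide array whose name on the array, or the symbol in brackets in the array's description, starts with MYL, MYH, MYO1, MYO5, MYO9, ARPC, ACTR, ACTN, TMSB, TPM, CAPZ, CFL, PFN, WAS or DIAPH, or is PXN, ENAH, VASP or GRLF1. Described here are 78 of the 21475 probes, for 76 of the 20459 gene names in all, and the brightest probe of each gene was used. PXN and ENAH were not analysed here. Of the 76 genes, 66 were tested. A probe counts as detected in a channel where the scanner software placed each of its spots well above the local background, and it was tested if detected in 4 or more of the 8 channels of 1 tissue or both. CFLAR, a regulator of cell death, and TPMT, which methylates thiopurine drugs, were picked up by the start of their symbol only and are no part of the cytoskeleton.

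The cells were CD14+ cells, the surface receptor that marks monocytes and macrophages, sorted by flow cytometry from the endometrium and from the blood of 4 pregnant cows at days 164, 239, 242 and 248 of pregnancy (animals 1 to 4). All animals came from an abattoir. The endometrial cells were freed with collagenase from the interplacentomal endometrium of the horn that held the fetus, and the blood was what remained in the heart. Per the labels, the endometrial preparations were less pure than those of blood. Each animal's pair of amplified RNA was hybridised to 2 arrays, so that n is 4 animals for every value below, with 8 arrays and 16 channels in all.

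Actin monomers assemble into filaments that give a cell its shape and let it crawl, engulf and divide. The Arp2/3 complex starts branched filaments when WASP and WAVE proteins call on it, formins start unbranched ones, profilin and beta-thymosin hold the monomers, capping protein stops growth at one end and cofilin severs. Tropomyosin and alpha-actinin stabilise and bundle the filaments, and the myosins pull on them: class II myosins contract, driven by light chains and by the light chain kinase, whereas unconventional myosins link filaments to membranes and carry cargo. In monocytes and macrophages this machinery serves migration and phagocytosis.

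Of the 66 tested genes described here, 50 lay within 2-fold between the tissues and 16 beyond it (24.2%, beside 32.6% of all probes). The median log2 ratio of endometrium over blood was 0.02, beside -0.14 over all 16653 probes tested. The mean ratio was below 0 for 32 of the 66 genes and for 9447 of the 16653 probes, beside which the counts by sign below are to be read. A gene was called at an adjusted p of at most 0.05 (limma, with Benjamini-Hochberg adjustment over all probes tested) and a fold change over 2. MYL2 was called higher in blood, where 0.12% of all probes tested were called, and 0 of the 66 genes were called higher in endometrium, where 1.23% were. In either direction this was 1.52% of the 66 genes, beside 1.35% of all probes. With the p left unadjusted and the fold kept, 2 genes were higher in endometrium (MYO10 and TMSB4X; 3.03%, beside 7.98% of all probes) and 2 in blood (MYL2 and MYH10; 3.03%, beside 8.05%). The ratio was above 0 in 4 of 4 animals for 5 genes (7.58%, beside 9.82% of all probes) and below 0 in 4 of 4 for 4 genes (6.06%, beside 15.2%).

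**Figure D1:**
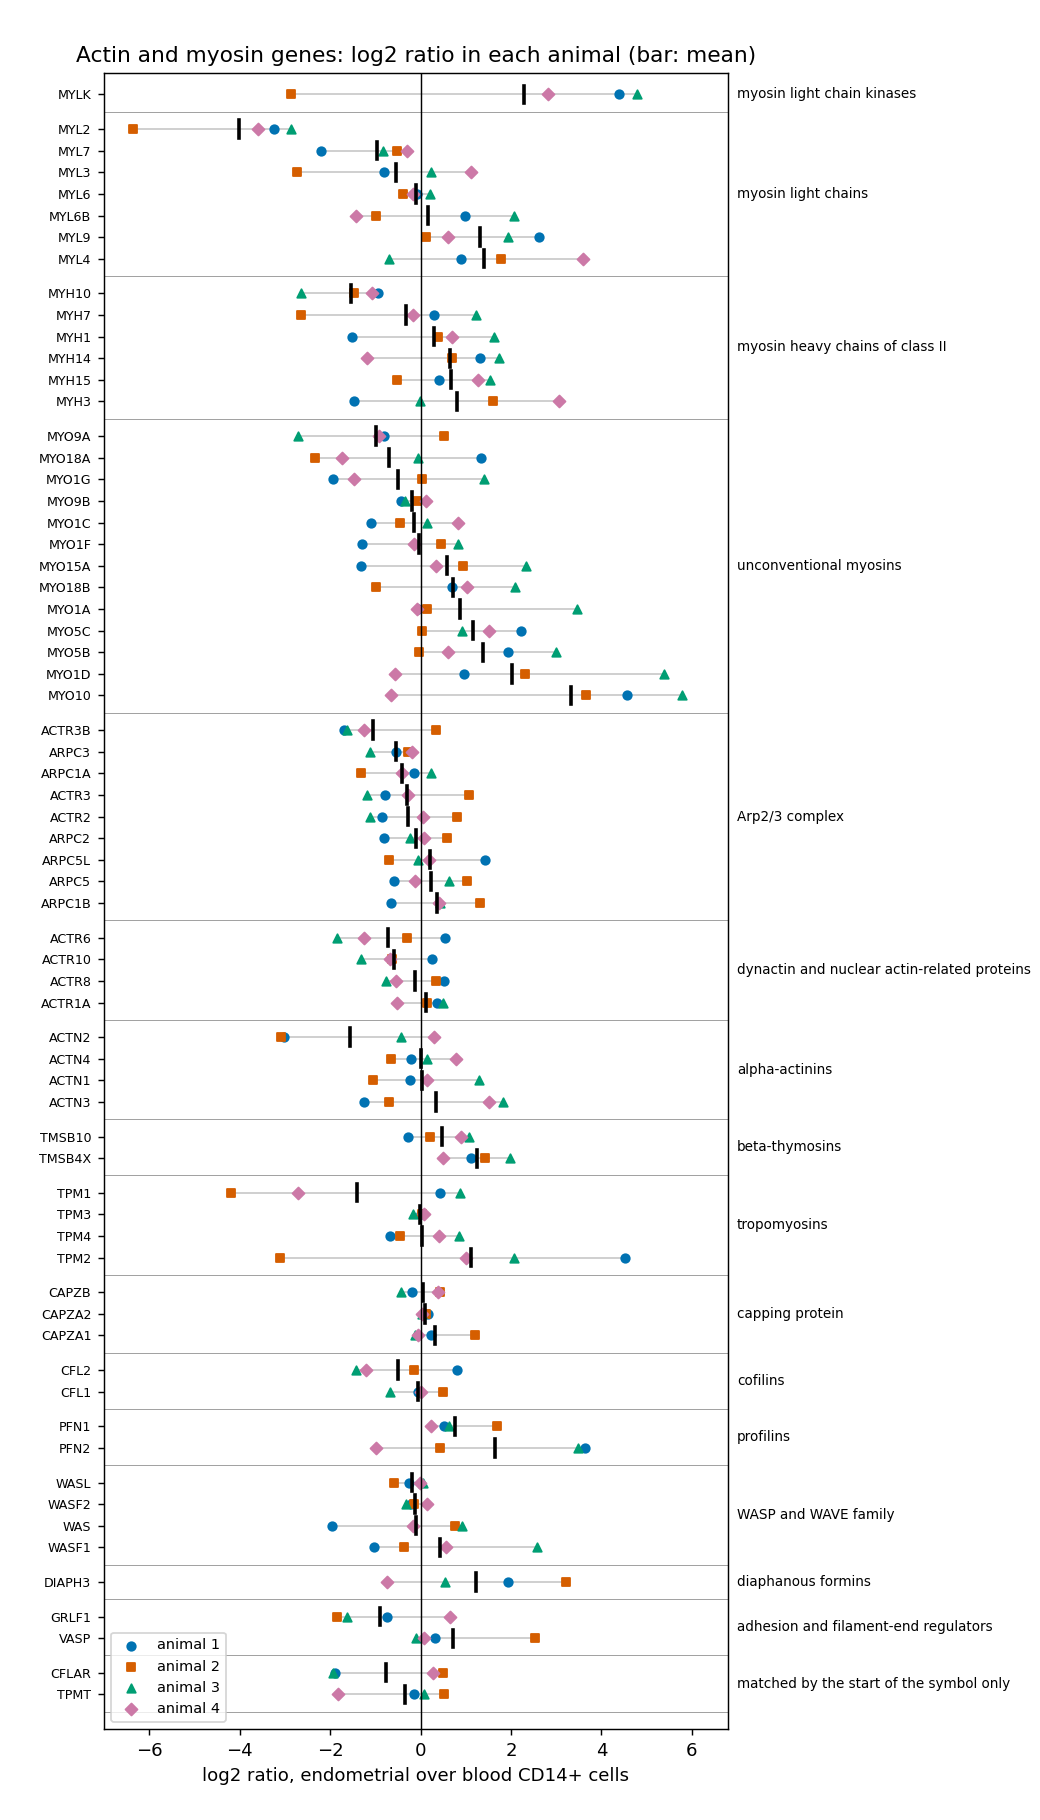
Log2 ratio of endometrial over blood CD14+ cells (x axis) for each of the 66 tested genes (y axis, grouped by role), with 1 symbol per animal and a black bar at the mean of 4 animals. Ratios of CAPZA2, TPM3 and MYL6 lie close to 0 in each animal, whereas those of MYLK and TPM2 lie on both sides of 0.

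Array probes are 60 bases long, and that of TPM2 is shown because its ratio lay far from 0 on both sides over the animals, and that of MYH1 because both probes of this gene differed in detection. Both are given 5′ to 3′ as the scanner files list them, in lower case with nothing marked, and no position in the genome is given for them there.
TPM2: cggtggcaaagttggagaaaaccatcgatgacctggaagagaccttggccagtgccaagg
MYH1: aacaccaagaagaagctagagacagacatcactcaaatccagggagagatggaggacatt
No 2 of the 78 probes had more than 13 bases in a row in common, which was reached by MYL3 with TPM2 and by MYO1G with WASL.

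Among the proteins that hold actin monomers, both profilins and both beta-thymosins had a mean ratio above 0, as they did under each scaling tried. TMSB4X encodes thymosin beta 4, the main monomer-sequestering protein of many cells. Its log2 intensity in endometrium was 17.59, 17.65, 17.90 and 17.52 in animals 1 to 4, and in blood 16.48, 16.23, 15.93 and 17.02. The tissues did not overlap (1 gene was higher in endometrium without overlap, or 1.52% of those tested, beside 2.7% of all probes), and the log2 ratio of 1.25 (SE 0.48, n = 4 animals, limma adjusted p = 0.27) was not called. The 2 arrays disagreed in the dye-swapped animals 1, 2 and 4. Their ratios were 0.19, 0.42 and -0.26 on 1 array and 2.02, 2.43 and 1.28 on the other. The difference lay mostly in blood, with 17.27 in Cy5 and 15.18 in Cy3 in animal 2. In animal 3, whose dyes were not swapped and whose blood was in Cy3 on both arrays, the arrays gave 2.03 and 1.91. The mean ratio was 1.91 over the arrays of technical replicate 2 and 0.59 over those of technical replicate 1. These are called slide 1 and slide 2 below, after the scanner files they match, as the sample titles name no slide. With a dye term in the fit the ratio was 1.03 (limma adjusted p = 0.26). The effect of the dyes on this gene was itself not tested. TMSB10, a second beta-thymosin, had a ratio of 0.48 and was below 0 in animal 1.

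PFN1, the profilin of most tissues, was higher in endometrium in 4 of 4 animals. Its log2 intensity was 16.88, 17.08, 16.20 and 16.15 in endometrium and 16.36, 15.40, 15.56 and 15.91 in blood, so that the tissues overlapped. The log2 ratio was 0.77 (SE 0.48, limma adjusted p = 0.46). PFN2, a profilin best known from brain, is named here after its values were seen, because its animals fell apart. Its ratio was 3.64 and 3.49 in animals 1 and 3, 0.43 in animal 2 and -0.98 in animal 4 (mean 1.65, SE 0.86, limma adjusted p = 0.39).

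The 9 genes of the Arp2/3 complex, which nucleates branched filaments, ran from -1.05 for ACTR3B to 0.37 for ARPC1B, with 6 below 0 (5 once arrays were centred), 8 within 2-fold and none called. ARPC1B, a subunit abundant in blood cells, had a log2 intensity of 15.31, 16.22, 15.92 and 16.01 in endometrium and 15.98, 14.90, 15.50 and 15.60 in blood. It was lower in endometrium of animal 1 and higher in the other animals, with a mean ratio of 0.37 (SE 0.51). ARPC3, another subunit, was higher in blood in 4 of 4 animals. Its intensity was 14.88, 14.94, 14.11 and 15.01 in endometrium and 15.43, 15.23, 15.24 and 15.19 in blood. The tissues did not overlap (1 gene was higher in blood without overlap, or 1.52%, beside 3.37% of all probes), but the log2 ratio of -0.53 (SE 0.45, limma adjusted p = 0.60) was under 2-fold and not called. The core actin-related proteins ACTR2 and ACTR3 had similar ratios in each animal but animal 4, at -0.85 and -0.79 in animal 1, 0.81 and 1.08 in animal 2, and -1.11 and -1.18 in animal 3.

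The 4 genes of the WASP and WAVE family, which switch the Arp2/3 complex on, had ratios between -0.20 and 0.44, and none was called. WASF2, the WAVE protein of most tissues, had a log2 intensity of 14.64, 14.17, 14.27 and 14.17 in endometrium and 14.84, 14.31, 14.59 and 14.03 in blood, with a ratio of -0.13 (SE 0.44). WAS, the member restricted to blood cells, was -0.11. DIAPH3, a formin that builds unbranched filaments, was the diaphanous formin measured here. Its intensity was 10.00, 11.85, 11.33 and 8.92 in endometrium and 8.07, 8.64, 10.79 and 9.66 in blood, and its ratio of 1.23 (SE 0.71, limma adjusted p = 0.43) was below 0 in animal 4.

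CAPZA1, CAPZA2 and CAPZB, the subunits of capping protein, had ratios of 0.32, 0.09 and 0.05. CAPZA2 was above 0 in 4 of 4 animals by 0.17, 0.12, 0.04 and 0.03, from intensities of 14.49, 13.74, 14.31 and 13.87 in endometrium and 14.32, 13.62, 14.27 and 13.85 in blood. It varied less between tissues than between animals, whose intensities had an SD of 0.35 in endometrium and 0.34 in blood. The mean ratio of CAPZA2 was not called (limma adjusted p = 0.94). CAPZA1 had an intensity of 14.86, 15.17, 14.54 and 14.49 in endometrium and 14.64, 13.96, 14.65 and 14.55 in blood, with animal 2 apart. CAPZA3, the subunit known from sperm, was detected in no channel. CFL1, the cofilin of non-muscle cells, had an intensity of 16.23, 16.58, 16.11 and 16.39 in endometrium and 16.29, 16.08, 16.79 and 16.39 in blood, with a mean ratio of -0.06 (SE 0.46) that changed sign with the scaling of the arrays. CFL2, the muscle cofilin, had a ratio of -0.49. VASP, which lengthens filaments at the leading edge, had a ratio of 0.71 (SE 0.59), made up of 2.53 in animal 2 and values between -0.09 and 0.31 in the others. Its intensity was 15.68, 16.40, 15.46 and 14.90 in endometrium and 15.36, 13.87, 15.55 and 14.81 in blood. GRLF1 had a ratio of -0.89.

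Actin-related proteins outside the Arp2/3 complex serve the dynactin motor complex or chromatin remodelling. The 4 tested ones had ratios between -0.71 (ACTR6) and 0.12 (ACTR1A), and ACTRT1 and ACTRT2, known from testis, were detected in no channel. ACTR1A, which forms the filament of dynactin, had a log2 intensity of 12.70, 12.50, 12.80 and 11.78 in endometrium and between 12.29 and 12.37 in blood, with a ratio above 0 in each animal except animal 4.

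Tropomyosins differed in how steady they were. TPM3, a tropomyosin of non-muscle cells and slow muscle, had an intensity of 15.49, 15.43, 15.40 and 15.62 in endometrium and 15.47, 15.39, 15.57 and 15.55 in blood. Its ratios lay between -0.18 and 0.07 (mean -0.01, SE 0.43, with an SD of 0.11 over animals), and the sign of the mean changed with the scaling. TPM2, a tropomyosin of smooth and striated muscle whose probe sequence is given above, had an SD of 3.18. It is described after its values were seen: it was 14.64, 8.61, 12.43 and 12.50 in endometrium and 10.13, 11.71, 10.35 and 11.50 in blood, which gave a ratio of 4.51 in animal 1 and -3.11 in animal 2 (mean 1.12, SE 1.13, limma adjusted p = 0.67). TPM1 had -4.20 in animal 2 and -2.72 in animal 4, but 0.42 and 0.88 in animals 1 and 3. TPM4 had a ratio of 0.03. Of the alpha-actinins, which cross-link filaments, ACTN1, ACTN4 and ACTN3 had mean ratios of 0.03, 0.02 and 0.34. Over the animals their ratios ran from -1.05 to 1.29, from -0.65 to 0.78 and from -1.25 to 1.82. ACTN4, a non-muscle form, had an intensity of 13.63, 14.04, 14.12 and 14.86 in endometrium and 13.84, 14.69, 13.97 and 14.08 in blood, and its sign changed on the first slide alone and without animal 3 or animal 4.

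The contractile apparatus of class II myosins held the gene higher in blood. MYL2 (NM_001035025) encodes the regulatory light chain of heart ventricle and slow muscle. Its log2 intensity was 2.39, 6.63, 5.33 and 2.96 in endometrium and 5.63, 12.98, 8.18 and 6.54 in blood. Blood exceeded endometrium in each animal, with log2 ratios of -3.24, -6.35, -2.86 and -3.59, although the tissues overlapped between animals. The mean ratio was -4.01 (SE 0.68, n = 4 animals, limma adjusted p = 0.047). The probe was detected in all 8 blood channels but in endometrium of animal 2 alone (2 of 8 channels), so the ratios of animals 1, 3 and 4 rest on endometrial values not above background. With those values raised to the lowest signal called above background on each array, the ratios of animals 1, 3 and 4 were -2.19, -2.46 and -1.41. From the scanner's median signals, corrected with normexp and normalised within and between arrays, the ratio was -1.59 (adjusted p = 0.39). Without any one animal it lay between -4.39 and -3.23 and was not called (adjusted p between 0.083 and 0.13), nor was it once each array was centred (adjusted p = 0.056), without the filter on dim probes (0.15) or without the pairing (0.48).

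Other genes of heart muscle were set beside MYL2. MYL3, the essential light chain of ventricle, had an intensity of 9.30 in blood of animal 2 and between 6.40 and 6.76 in blood of the others. MYH7, the beta-cardiac heavy chain, had 9.62 in blood of animal 2 and between 5.92 and 6.87 in the others. Blood of animal 2 thus held the highest value of MYL2, MYL3 and MYH7. Over the animals neither MYL3 (mean ratio -0.55) nor MYH7 (-0.32) was called. ACTN2, the muscle alpha-actinin, was detected in no endometrial channel and in 4 of 8 of blood, with 6.17 and 5.75 in blood of animals 1 and 2 (limma adjusted p = 0.34, and no bound on its fold above 1). MYL7, the regulatory light chain of the atrium, was higher in blood in 4 of 4 animals. It had 3.36, 4.38, 4.17 and 6.28 in endometrium and 5.55, 4.90, 5.01 and 6.58 in blood, with a ratio of -0.96 (SE 0.51, limma adjusted p = 0.40) that was -0.11 from the scanner's median signals with normexp. MYL4, the essential light chain of atrium and fetal muscle, had a ratio of 1.39 and lay below 0 in animal 3.

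A list of 14 heart muscle genes, chosen after these values were seen, had 12 genes matched to a probe. Its summed log2 intensity ranged from 9.69 to 14.88 in blood and from 9.85 to 11.25 in endometrium, and the highest value was that of blood of animal 2. In that animal the ratios of TNNC1, TTN, TNNI3 and MB, which encode cardiac troponins, titin and myoglobin, were -6.09, -5.84, -5.48 and -4.91, the 4 lowest of the 7 tested. Those of CSRP3, NPPA and NPPB were -1.23, -0.72 and 2.16. In the other animals TNNC1, TTN, TNNI3 and MB lay between -2.83 and 2.48. Of the 7 genes tested, 0 were called by limma, and 1, NPPB, passed an unadjusted p of 0.05 with a fold over 2, in the direction of endometrium. TNNT2, CKM, RYR2 and MYOZ2 were detected in no endometrial channel, and CKM and RYR2 in none of blood either. The blood came from the heart, and the part of heart muscle RNA in the MYL2 result was not tested.

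**Figure D2:**
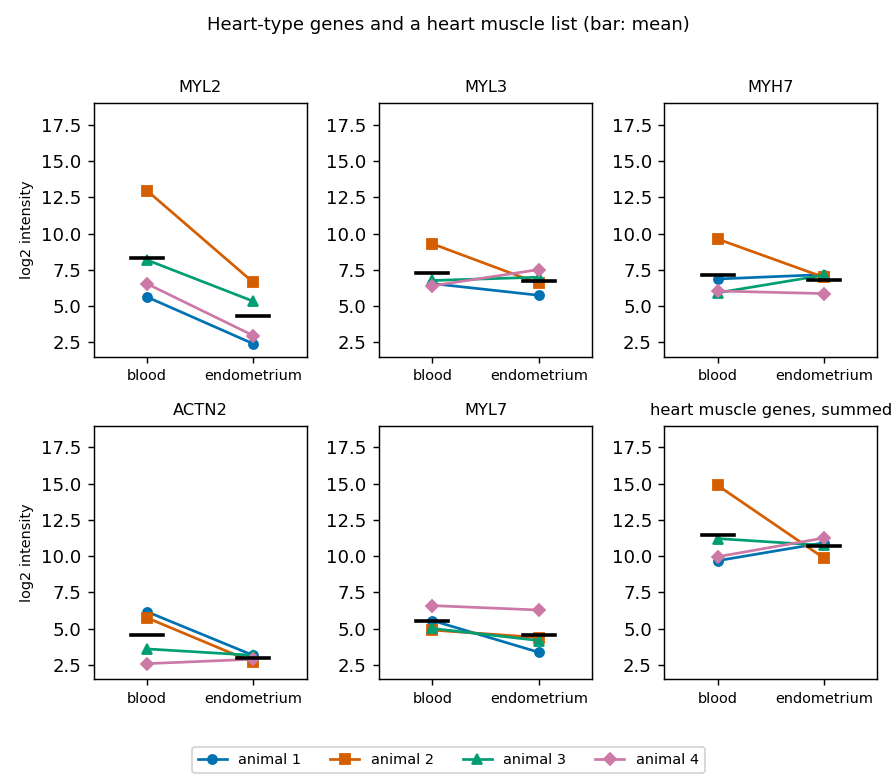
Log2 intensity (y axis) in blood and endometrial CD14+ cells (x axis) for 5 heart-type genes and the summed intensity of the heart muscle list, with 1 line per animal and black bars at the mean of 4 animals. Blood of animal 2 holds the highest value of MYL2 (12.98), MYL3 (9.30), MYH7 (9.62) and the list (14.88).

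Of the other light chains, MYL6 is the essential light chain of smooth muscle and non-muscle myosin. Its intensity was 15.73, 15.75, 15.67 and 15.75 in endometrium and 15.80, 16.13, 15.45 and 15.92 in blood, with a ratio of -0.10 (SE 0.44) that was 0.02 once each array was centred. MYL9, the regulatory light chain of smooth muscle and non-muscle cells, was higher in endometrium in 4 of 4 animals. Its intensity was 15.83, 15.57, 15.85 and 15.17 in endometrium and 13.21, 15.45, 13.92 and 14.57 in blood. It was even across endometrium and uneven across blood, and the ratio ran from 0.12 in animal 2 to 2.62 in animal 1 (mean 1.32, SE 0.57, limma adjusted p = 0.32). MYL6B had a ratio of 0.16, and MYL1, the fast-muscle light chain, whose probe carries the same accession as that of MYL3, was detected in no channel.

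MYLK encodes the kinase that switches on smooth muscle and non-muscle myosin. Its brighter probe had an intensity of 13.36, 7.62, 11.99 and 7.86 in endometrium and 8.97, 10.47, 7.20 and 5.05 in blood. The ratio was 4.39, 4.79 and 2.82 in animals 1, 3 and 4 and -2.86 in animal 2 (mean 2.29, SE 1.23, limma adjusted p = 0.41), with the largest SD over animals of the 66 tested genes (3.53). The other MYLK probe was detected in animals 1 and 3 alone. It had 13.60 and 12.98 in endometrium and 10.13 and 9.86 in blood of animals 1 and 3, against 2.52 and 2.66 in endometrium and 2.47 and 4.08 in blood of animals 2 and 4. Endometrium exceeded blood by 3.47 and 3.13 in animals 1 and 3, and the ratios of animals 2 and 4, from values not above background, were 0.05 and -1.41. Its mean ratio was 1.31 (limma adjusted p = 0.50). On its brighter probe blood of animal 2 had the highest of the 4 blood values, so that the 2 probes of this gene did not order the animals alike. The array lists these probes under different transcript identifiers, and whether both measure the same transcript was not tested.

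Markers of stroma and smooth muscle varied over the same animals. Of 14 stroma markers, 13 were on the array, and all 12 that were tested had a mean ratio above 0, with 2 called. Their summed log2 intensity ranged from 10.44 to 18.60 in endometrium and from 9.30 to 12.79 in blood, and the median ratio of animals 1 to 4 was 5.85, 0.67, 3.70 and 2.96. The ratios of MYL9, TPM2 and the brighter MYLK probe, like the median of the stroma markers, were lowest in animal 2. Those of PFN2 (-0.98) and the other MYLK probe (-1.41) were lowest in animal 4. The intensity of MYL9 lay between 15.17 and 15.85 in endometrium, unlike the stroma sum. Its low ratio in animal 2 went with a blood value of 15.45, against 13.21 to 14.57 in the other animals. Of 10 smooth muscle markers, 8 were tested and 0 called by limma, while 1, TAGLN, passed before adjustment. Their summed intensity ranged from 9.76 to 13.65 in endometrium and from 9.65 to 12.46 in blood, and CNN1 was detected in no blood channel. MYH11, the smooth muscle heavy chain, was detected in 2 of 8 endometrial and 3 of 8 blood channels and was not tested. Fewer cells of a type and less RNA per cell cannot be told apart in these sorted pools. The part of stroma or smooth muscle RNA in these ratios was not tested.

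**Figure D3:**
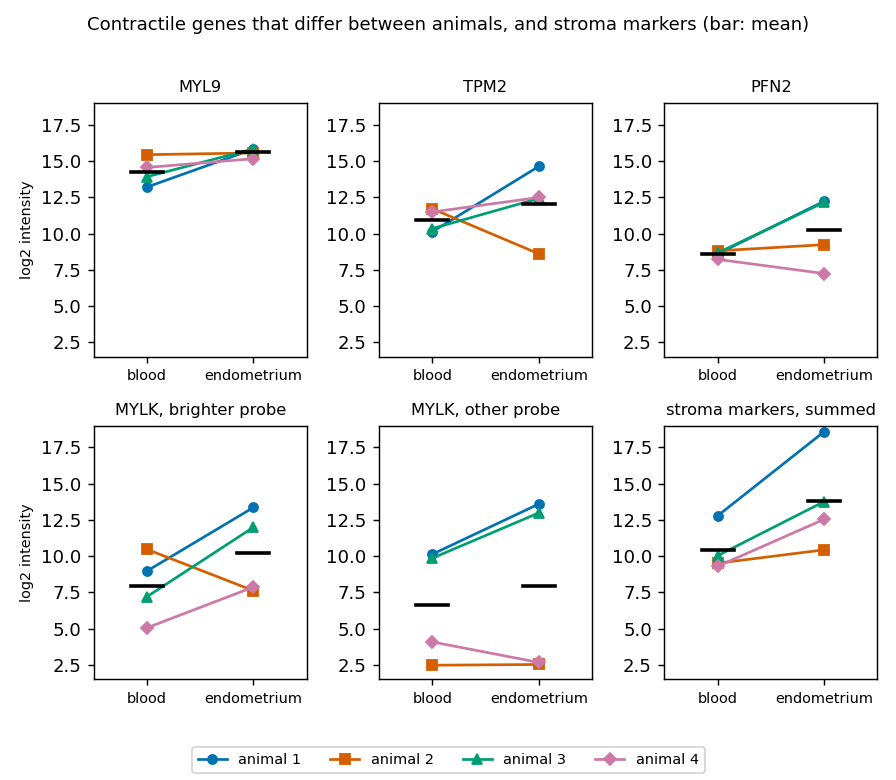
Log2 intensity (y axis) in blood and endometrial CD14+ cells (x axis) for MYL9, TPM2, PFN2, both probes of MYLK and the summed stroma markers, with 1 line per animal and black bars at the mean of 4 animals. TPM2 and the brighter MYLK probe are lower in endometrium than in blood in animal 2 and higher in the others, and the other MYLK probe is high in both tissues of animals 1 and 3 and low in both of animals 2 and 4.

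Of the 11 class II heavy chains, which form the motor of contractile filaments, 6 were tested. MYH10, non-muscle myosin IIB, was higher in blood in 4 of 4 animals. Its intensity was 8.67, 10.52, 7.55 and 10.29 in endometrium and 9.61, 11.998, 10.20 and 11.37 in blood. The ratio of -1.53 (SE 0.50, n = 4 animals) had an unadjusted p of 0.018 and a limma adjusted p of 0.23. It lay between -1.73 and -1.03 under each alternative tried and was called under none. The skeletal heavy chains MYH8 and MYH13 were detected in no channel, and MYH4 and MYH7B were below the minimum for a test. MYH1, a fast skeletal heavy chain, was detected in 6 of 8 endometrial and 3 of 8 blood channels on the probe printed above, with a ratio of 0.30, and in 0 channels on its other probe. MYH3, MYH14 and MYH15 had ratios of 0.80, 0.64 and 0.67 and were not called.

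Most of the unconventional myosins move along actin by themselves and do not form contractile filaments. Of the 13 tested, 7 had a mean ratio above 0 (7 to 9 with other scalings), with a median of 0.58 (0.12 with normexp). MYO10, which carries cargo to the tips of filopodia, had a ratio of 3.34 (SE 1.01, limma adjusted p = 0.21). It was 4.56, 3.66 and 5.78 in animals 1 to 3 and -0.65 in animal 4. The gene was detected in 6 of 8 endometrial and 3 of 8 blood channels. Its blood intensity was 3.36, 2.65, 5.11 and 4.95, so the ratio rests in part on values not above background. MYO1D (2.02), MYO5B (1.38) and MYO1A (0.87), which work at the membrane or in recycling endosomes of epithelial cells, were not called, and each was highest in animal 3, at 5.39, 3.00 and 3.45. These 4 genes are named after their values were seen. MYO1A lay between -0.07 and 0.15 in animals 1, 2 and 4. The ratios of all probes tested also spread most in animal 3, with an SD of 2.37, against 1.39 to 1.63 in the other animals. MYO5C, a myosin of secretory epithelia, was above 0 in 4 of 4 animals, with 5.20, 2.63, 6.02 and 5.24 in endometrium and 2.98, 2.60, 5.09 and 3.73 in blood. It was detected in 4 of 8 endometrial channels and in none of blood. Its ratio of 1.17 (SE 0.53, limma adjusted p = 0.33) was 0.12 from the scanner's median signals with normexp. As the other endometrial channels were not above background either, no bound on its fold is given.

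Myosins of blood cells were near 0 on average and were not called. MYO1G, known from leukocytes, had an intensity of 12.08, 13.18, 13.96 and 11.42 in endometrium and 14.02, 13.14, 12.56 and 12.88 in blood. Its ratio was -1.93 in animal 1 and 1.40 in animal 3 (mean -0.49, SE 0.66). MYO1F and MYO9B, both known from leukocytes, had ratios of -0.04, whose sign changed with the scaling, and -0.19. MYO5A was not tested.

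Markers of epithelium and trophoblast were read beside these myosins. Of 13 epithelium markers, all 13 were tested, 13 had a mean ratio above 0 and 7 were called. Their summed log2 intensity ranged from 13.47 to 17.56 in endometrium and from 10.47 to 13.14 in blood, highest in animal 3 in each tissue, and every marker was detected in some channel of each tissue. Of 11 trophoblast markers, 9 were tested, 7 were called higher in endometrium and GCM1 was detected in no channel. PAG1 had a ratio of -2.10 and passed the unadjusted rule in blood. Their summed intensity ranged from 15.69 to 17.39 in endometrium and from 11.55 to 13.21 in blood. The part of RNA from these cells in the ratios of MYO10, MYO1D, MYO5B and MYO1A was not tested.

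**Figure D4:**
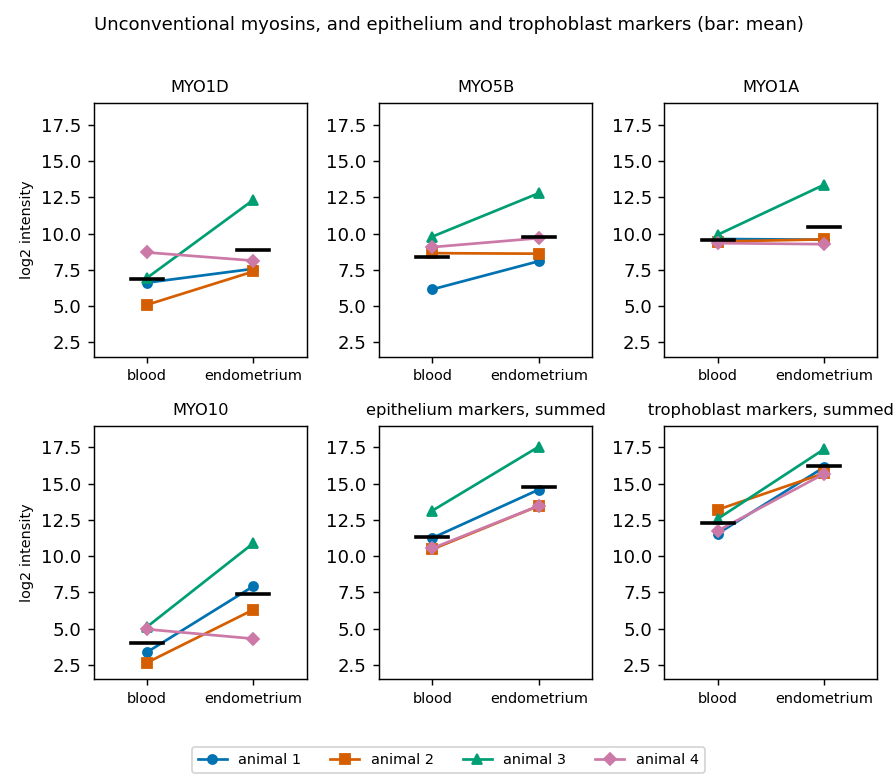
Log2 intensity (y axis) in blood and endometrial CD14+ cells (x axis) for 4 unconventional myosins and the summed epithelium and trophoblast markers, with 1 line per animal and black bars at the mean of 4 animals. Endometrium of animal 3 is the highest of the 8 values for each myosin and both marker lists. Over all probes tested, the ratios of animal 3 also had the largest SD (2.37, against 1.39 to 1.63 in the others).

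CFLAR, the brighter of both genes that match by the start of the symbol only, had an intensity of 11.52, 12.65, 9.87 and 12.31 in endometrium and 13.41, 12.15, 11.80 and 12.04 in blood, with a ratio of -0.76 (SE 0.61). Without CFLAR and TPMT the median ratio of the tested genes was 0.03.

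The genes with the same direction in 4 of 4 animals are set side by side in the plot of intensity by tissue.

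**Figure D5:**
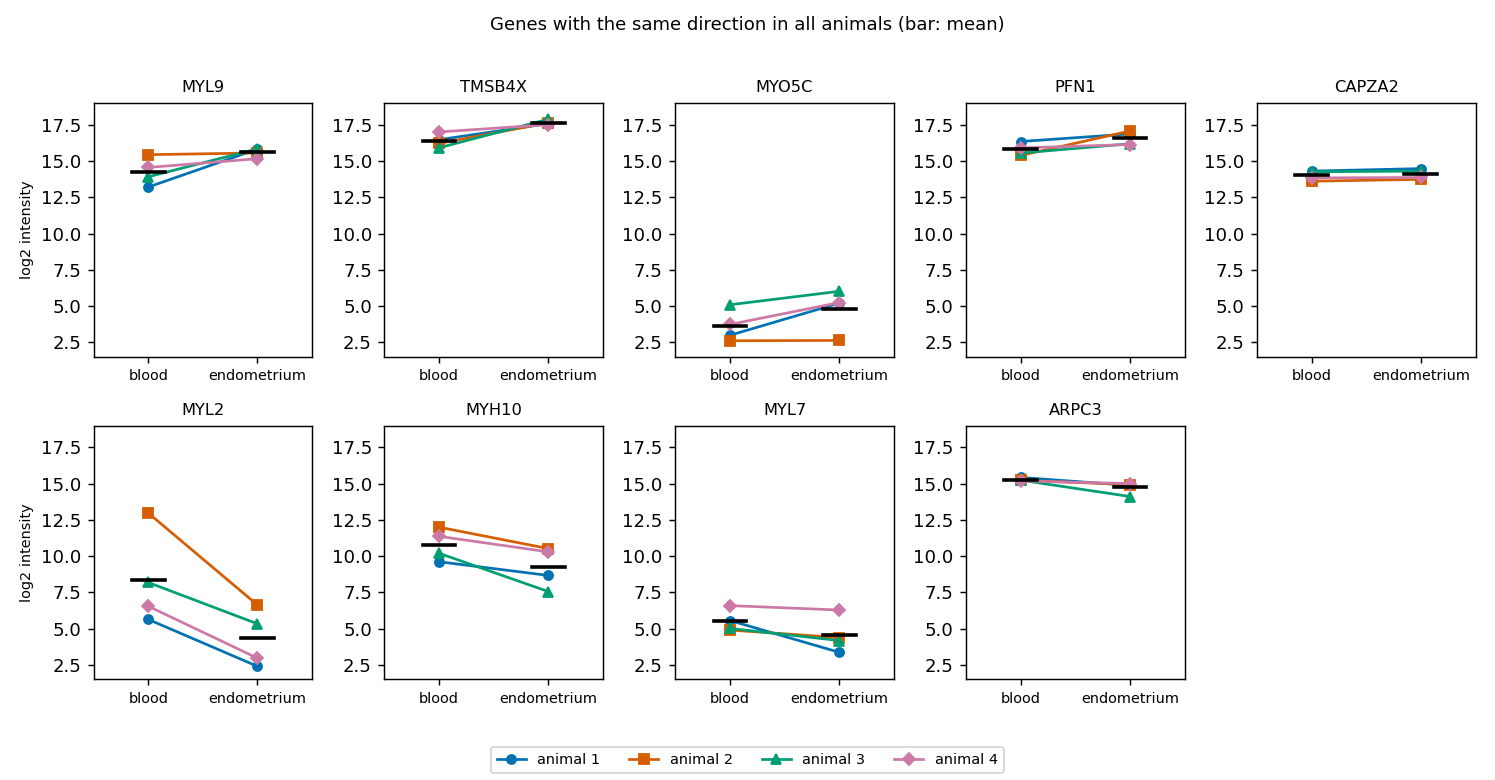
Log2 intensity (y axis) in blood and endometrial CD14+ cells (x axis) for the 5 genes with a ratio above 0 and the 4 with a ratio below 0 in 4 of 4 animals, with 1 line per animal and black bars at the mean of 4 animals. Lines of MYL2 are steep, with a mean ratio of -4.01, and those of CAPZA2 are flat, with a mean ratio of 0.09.

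Other genes of the actin pathway were read from 7 lists of 114 genes, of which 94 were tested. CTTN (cortactin, which stabilises branched filaments) was called higher in endometrium, and none of the 94 was called higher in blood. This was 1.06% of the 94, beside 1.23% of all probes. Before adjustment, 12 passed the p and the fold in endometrium (12.8%, beside 7.98% of all probes) and 1 in blood (1.06%, beside 8.05%), and the median ratio was -0.19. CTTN had ratios of 3.88, 3.51, 2.91 and 3.69 (mean 3.50, SE 0.45, limma adjusted p = 0.017), and was detected in 8 of 8 endometrial and 5 of 8 blood channels. It was not called without animal 1 or without animal 4, without the pairing, or from the scanner's median signals with normexp. The cytoplasmic actins ACTB and ACTG1 had ratios of -0.06 and 0.00, and the smooth muscle actins ACTA2 and ACTG2 had -0.22 and -0.02, all of which changed sign with the scaling. The gene that passed before adjustment in blood was twinfilin TWF1, which binds monomers, at -1.84 (SE 0.48, limma adjusted p = 0.17). Of the cross-linkers and side binders, 26 were tested and 7 passed the unadjusted rule in endometrium: CTTN, PLS1, PLS3, CNN3, AIF1, TAGLN and CORO1C. Among the severing and monomer-binding proteins SCIN and CAPG did so, and among the WAVE partners ABI3. The 8 tested adhesion plaque proteins had ratios between -0.71 and 1.49. All 5 tested tropomodulins lay below 0, beside 9447 of all 16653 probes, and 1 or 2 of the 5 were above 0 with normexp. These results did not pass after adjustment except for CTTN.

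The CD14 probe itself had a log2 ratio of -0.17 (SE 0.60, limma adjusted p = 0.92), and its intensity ranged from 5.76 in blood of animal 2 to 16.12 in blood of animal 1. Of the 9 monocyte and macrophage markers tested, CD14 included, 7 had a mean ratio above 0 and 1 was called, and LYZ was detected in no channel. In animals 1 to 4 the summed intensity of these markers was 18.57, 14.99, 17.02 and 16.74 in endometrium. In blood it was 18.33, 13.75, 13.13 and 12.84. For natural killer and T cells the sums were 16.97, 19.10, 17.96 and 17.90 in endometrium and 13.30, 17.51, 16.75 and 17.95 in blood. In blood, the monocyte and macrophage sum was highest and the natural killer and T cell sum lowest in animal 1. The part of such cells in the ratios above was not tested. Those of B cells ranged from 13.38 to 15.82 in endometrium and from 14.46 to 17.11 in blood. Summed intensities of the endothelium markers ranged from 12.09 to 14.60 in endometrium and from 11.72 to 12.56 in blood, and of the platelet markers from 12.18 to 12.90 and from 12.39 to 13.96. Those of granulocytes ranged from 7.47 to 11.86 and from 8.61 to 14.72, those of erythroid cells from 11.63 to 18.34 and from 8.72 to 13.63, and those of immediate early and heat shock genes from 17.89 to 19.05 and from 17.08 to 18.05. All 12 immediate early and heat shock genes had a mean ratio above 0 and 2 were called, and of 8 B cell markers 7 lay below 0 and 1 was called.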

How the data were processed

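Endometrial and blood CD14+ cells of 4 cows were compared on 8 two-colour Agilent arrays, 2 per animal, dyes swapped in 3 animals. The deposited log2 values were made by the authors: Feature Extraction (9.5 per the labels), log transformation, lowess within arrays and quantiles between them. The deposited scanner intensity columns gave the background flags and alternatives. Each column of the log2 table equalled (within 0.001, probe means) the labelled dye in the scanner file given for the other array of the animal, and the files were read accordingly. Slide 1 and slide 2 name the arrays whose files were given for technical replicates 1 and 2, as the sample titles name no slide. Read as attached and corrected with normexp, the ratios of animal 3 and of the others ran against each other (r -0.449 to -0.359 over probes). In the deposited table r was 0.196 to 0.369 over all pairs of animals. As the dyes of animal 3 were the same in both files, that reading turned the ratios of animals 1, 2 and 4. Spots of a probe were averaged, each animal's ratio is the mean of its 2 arrays, and limma 3.58.1 (R 4.3.3) tested it against 0, 2-sided, after a test on simulated data. Tissue samples of an animal deviated together (r 0.239 to 0.628), and pairing follows the labels. The median ratio of all probes was -0.14, against -0.02 and 0.02 for normexp (offset 50) with and without quantiles. With 4 animals an exact permutation test cannot go below p = 0.125. The number of animals and arrays limits the precision, and no spot was saturated.

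Described genes were those called, those with one direction in 4 of 4 animals (up to 12 each way) and the brightest of each role. Members, lists and rules were chosen with earlier results of these data known. The rule matched 1 further gene, which is not reported here and is in none of the counts of these genes. Symbols were updated through a RefSeq gene table (ARS-UCD2.0).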

Additional observations from a re-analysis of the deposited data

Results flagged for a closer look

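The log2 intensity in each tissue and the log2 ratio were looked at over the 4 animals for each of the 22 described genes, 66 groups in all. In 3 of them, 1 animal lay farther from the others than Dixon's critical value for 4 samples allows. Chance alone gives this in about 1 in 20 groups. ARPC3 in endometrium of animal 3 had a log2 intensity of 14.11, against 14.88 to 15.01 in the others. CAPZA1 in blood of animal 2 had 13.96, against 14.55 to 14.65. The log2 ratio of VASP in animal 2 was 2.53, against -0.09 to 0.31.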

How the results depend on the processing

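Results were recomputed under 17 alternatives, of which the normexp settings and the fits with a slide or dye term change several steps together. Over all probes, 204 were called higher in endometrium and 20 in blood. These counts were 11 and 0 for scanner medians with normexp, loess and quantiles, 5 and 0 without quantiles, 115 and 8 without the filter on dim probes, 35 and 3 with no replicate block (without the pairing), and 0 and 0 by the methods' paired test. In blood alone the count was 12 from the processed signal, 13 on slide 2 and 37 with a dye term. Leaving out 1 animal gave 0 to 176 in endometrium and 0 to 4 in blood, the lowest without animal 4. The count of actin and myosin genes called higher in endometrium was 0 throughout, and that higher in blood, 1, was 0 for both normexp settings, with no replicate block, by the methods' paired test, with centred arrays, no filter, a slide term or slide 2 alone, and without any 1 animal (0 to 0). The count of other actin pathway genes called higher in endometrium, 1, was 0 for both normexp settings, with no replicate block and by the methods' paired test, and 0 to 1 without 1 animal. Counts under the other alternatives stayed within 1.5 times.

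Signs changed for genes near 0. ACTN4 was -0.26 on slide 1 and lay between -0.24 and 0.24 without 1 animal, below 0 without animal 3 (-0.03) or 4. CFL1 was 0.011 with normexp and loess, 0.067 centred and 0.054 on slide 1, and lay between -0.25 and 0.15 without 1 animal, above 0 without animal 3. ACTR1A was -0.0015 on slide 2 and lay between -0.0055 and 0.33 without 1 animal, below 0 without animal 3. MYL6 was 0.024 centred. TPM3 was 0.014 with normexp and loess, 0.12 centred and 0.026 on slide 1, and lay between -0.039 and 0.043 without 1 animal, above 0 without animal 3. The causes were not tested. The ratios of the other 17 described genes kept their sign under each alternative, except that MYL7 and MYO5C did not pass the stricter filter and have no value there. Genes near background, such as MYL2, MYL7, MYO5C and MYO10 in the dimmer tissue, are measured least well.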
